A study of Mus musculus with 6 samples.

Results

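The genes of the heat shock chaperones and their co-chaperones were examined in lung RNA of Zpbp2 KO and WT mice. They were chosen by symbol and by count. The symbol had to name an Hsp70, Hsp90, Hsp60, Hsp10 or small heat shock protein, a J-domain protein (Dnaj), a subunit of the CCT chaperonin or a BAG protein, or to be Fkbp4, Stip1, Chordc1, Ahsa1, Ptges3 or Hsf1, and the gene had to reach 10 counts in at least 3 libraries. Of the 47069 genes of the count table, 104 had such a symbol and 86 of these reached the count. All 86 were among the 17037 genes tested, and the other symbols, many of them pseudogenes, had at most 17 counts in any library. Just inside the count minimum lay Cct6b, a testis form of a CCT subunit, with 6 to 16 counts per mouse, and Dnajb3 with 11 to 28. Just outside lay the pseudogene Hspd1-ps4 with 3 to 17 counts and Dnajc22 with 6 to 14. The family was picked for description with earlier results of these libraries known, so its counts below are a description and not a test of the family.

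Lungs were taken from 3 adult WT mice (WT4, WT5 and WT6) and 3 adult Zpbp2 KO mice (KO4, KO5 and KO6) at ZT10, that is 10 h after lights on. The WT mice were C57BL/6J, and the KO mice were of the strain B6.129S7-Zpbp2tmZuk/Mmjax, whose name marks a 129S7 origin of the deletion and which the labels give as C57BL/6J, its background. Both came from 1 colony. The KO mice carry in every cell a deletion of the 5′ part of Zpbp2, with its first exons and part of its promoter, and the sources do not say whether the controls were littermates. The comparison addressed how loss of the Zpbp2 region, which lies near the clock gene Nr1d1, alters the lung transcriptome late in the light phase.

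Total gene counts lay between 19981428 and 46796908 per mouse, at which 3 counts equal 0.0629 to 0.148 CPM, the counts scaled to library size. Zpbp2 itself had 1, 2 and 2 counts in WT mice and 0, 0 and 0 in KO mice, which is under that floor and does not check the labels. The main axis of variance in log2 CPM, with 43.5% of the variance, separated the 3 KO mice from the 3 WT mice. Xist lay between 715 and 994 CPM in all 6 mice, and Y-linked genes had at most 9 counts. Summed markers of type 2 alveolar cells, which define this tissue, lay between 16887 and 23285 CPM.

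Chaperones help other proteins fold, hold unfolded chains in solution and direct damaged ones to degradation. Hsp70 proteins bind short exposed stretches in a cycle of ATP hydrolysis, which J-domain proteins start and Hsp110 and BAG proteins end by exchanging the nucleotide. Hsp90 takes over clients such as the glucocorticoid receptor and kinases, with co-chaperones that load, hold or release them. The transcription factor Hsf1 switches on the heat-inducible members of the family by binding heat shock elements, which are arrays of inverted GAA and TTC blocks. RNA of several of these genes is known to follow the daily rhythm of body temperature.

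RNA of many heat-inducible chaperones was lower in KO lungs at ZT10, led by Hsph1, Hspb1, Dnaja1, Hspa8, Dnajb1 and Hsp90aa1. A gene was called when its adjusted p-value in edgeR's quasi-likelihood test, corrected over all genes tested, was at most 0.05. Of the 86 members, 27 were called lower in KO mice and 0 higher, against a background of 2.67% of all genes called lower and 3.72% called higher (6.39% in either direction). The 27 are 31.4% of the members. At an unadjusted p under 0.05, 47 members were lower and 1 was higher, and 0 were called higher by edgeR's exact test or by DESeq2. The log2 fold change was below 0 in 68 members, against 49.4% of all genes. The median log2 fold change was −0.18 over the members and 0.003 over all genes tested. Of 19 members listed here as heat-inducible, 17 were called lower and the median was −0.90. The smallest fall in that list was that of Hspa4 (−0.34). Of the other 67 members 10 were called lower and the median was −0.12. This list was drawn up with earlier results of these data known, so the contrast is a description and not a test.

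The 27 called members had falls of different size. The mean CPM was at least 2-fold lower in 7 of them (Hsph1, Hspb1, Dnaja1, Hspa8, Dnajb1, Hsp90aa1 and Stip1). In another 10 the log2 fold change lay between −1 and −0.5, and in the last 10 above −0.5. With the fold threshold of the study, a log2 fold change of at least 1.5 in size, 1 member passed (Hsph1), against 0.0646% of all genes lower and 0.575% higher. The CPM ranges of the 2 groups did not overlap in 52 members lower in KO mice, against 15.6% of all genes, and in 3 higher (Dnajc10, Dnajc17 and Dnajc7), against 17% of all genes.

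The number of calls depended on single mice more than the fold changes did. All 27 kept a negative log2 fold change with any 1 mouse left out. Their sign could hardly reverse, because in each of the 27 every KO mouse lay below every WT mouse. In edgeR the log2 fold change of Hsph1 lay between −2.02 and −1.77 in these fits, and that of Hspb1 between −1.48 and −1.01. Without WT5, edgeR called 0 members (41 lower at an unadjusted p under 0.05) and 1 gene in all, and DESeq2 called 28 members lower. Without WT6 edgeR called 12 and without KO6 14, and DESeq2 called between 27 and 32 members lower whichever mouse was left out, with all 27 among them. In edgeR, 10 of the 27 were called in 5 of these 6 fits, 9 in 3 or 4, 5 in 1 or 2, and 3 (Dnajc3, Cct7 and Hspa2) in none.

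**Figure D1:**
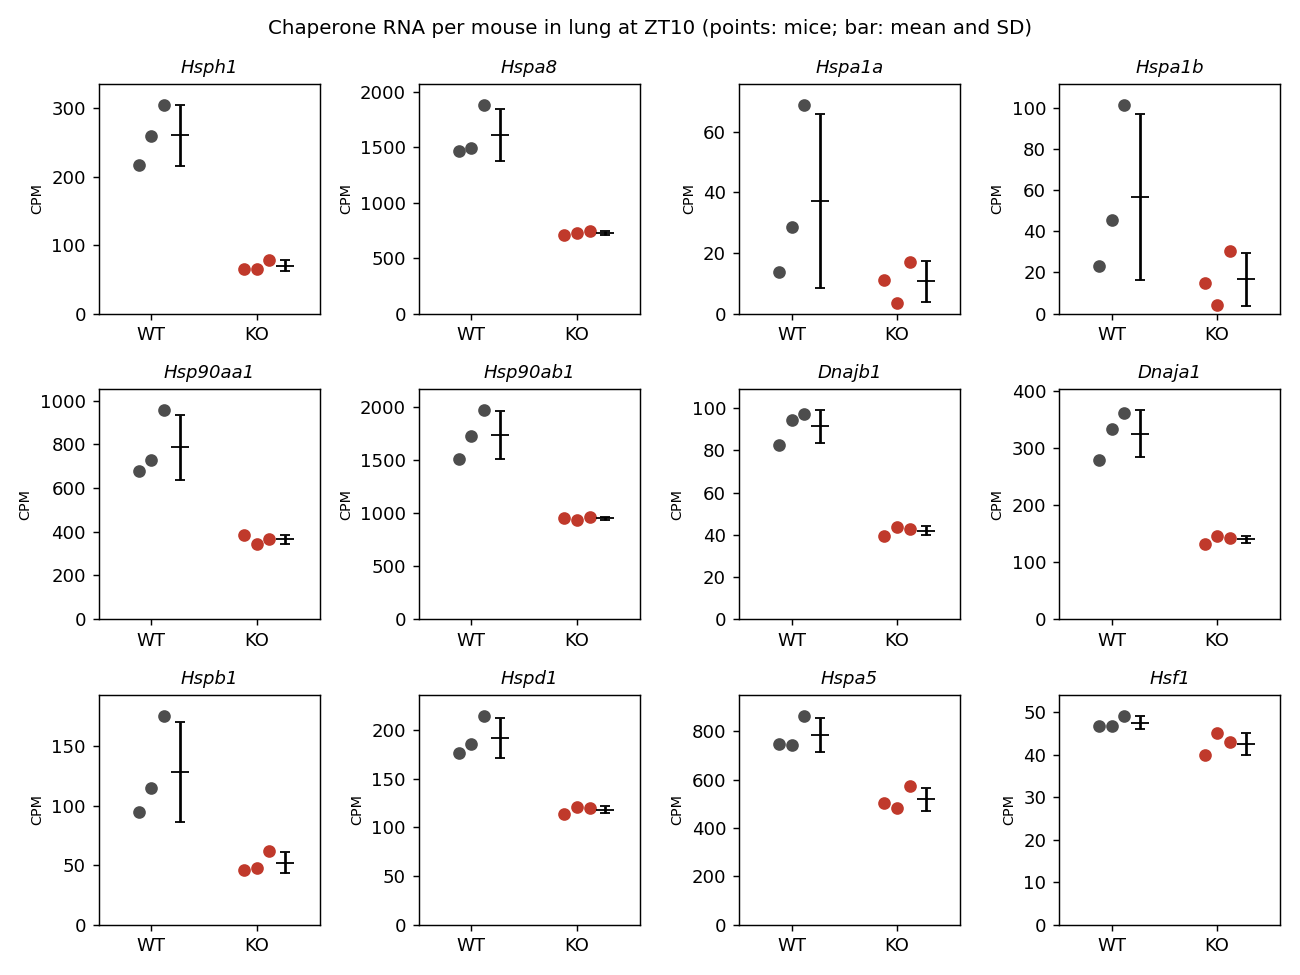
Levels of 12 members in CPM (vertical axes from 0) in each WT (grey) and KO (red) mouse, with points ordered by mouse number and bars for the mean and SD of 3 mice. The 2 groups lay apart for all but Hspa1a and Hspa1b, where the lowest WT mouse lay below the highest KO mouse.

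The start sites of several of these genes are shown because their letters can be searched for the blocks of heat shock elements. RefSeq gave windows from 250 bases before to 50 after the start site (GRCm38.p6) for 70 of the 86 members and for 24 of the 27 called lower, and those of Hspa8, Hsp90ab1 and Hsp90aa1 were not used here. Both a pair and a run of 3 blocks were searched. A pair of blocks is GAANNTTC or TTCNNGAA, where N is any base, and each equals its own reverse complement. A run of 3 blocks adds a further GAA or TTC in alternation, again after any 2 bases, so that each run contains both pairs, and its 2 forms are reverse complements of each other. A pair stood in the windows of 11 of the 24 genes called lower (45.8%), of 9 of the 46 not called (19.6%) and of 17.0% of the 27018 genes with a window. A run of 3 stood in 4 of the 24 (16.7%), namely Hsph1, Chordc1, Hspd1 and Hspe1, in 1 of the 46 (2.17%), namely Dnajb6, and in 0.663% of all genes. The windows of Hspd1 and Hspe1 overlap, so that the same stretch of DNA, with its run and pairs, was counted for both genes. A match is a description of letters and not of binding.

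The windows of 5 genes follow, 5′ to 3′ on the strand of the gene, with the matching blocks in capitals. Hsph1 (chr5:149636266-149636565, minus strand) fell most and holds a pair before the start and a run of 3 after it. Chordc1 (chr9:18292017-18292316, plus strand) holds overlapping runs at the start. Hspe1 (chr1:55087898-55088197, plus strand) shares its promoter with Hspd1, which is read in the opposite direction. Hspb1 (chr5:135887669-135887968, plus strand) holds pairs but no run. Dnajb6 (chr5:29735648-29735947, plus strand) is shown because it holds a run and was not called.
Hsph1: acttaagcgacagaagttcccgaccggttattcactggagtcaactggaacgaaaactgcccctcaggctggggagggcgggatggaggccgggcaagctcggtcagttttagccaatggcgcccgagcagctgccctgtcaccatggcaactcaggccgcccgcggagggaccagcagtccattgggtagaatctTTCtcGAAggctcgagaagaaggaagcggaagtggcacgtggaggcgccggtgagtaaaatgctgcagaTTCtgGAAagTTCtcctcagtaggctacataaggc
Chordc1: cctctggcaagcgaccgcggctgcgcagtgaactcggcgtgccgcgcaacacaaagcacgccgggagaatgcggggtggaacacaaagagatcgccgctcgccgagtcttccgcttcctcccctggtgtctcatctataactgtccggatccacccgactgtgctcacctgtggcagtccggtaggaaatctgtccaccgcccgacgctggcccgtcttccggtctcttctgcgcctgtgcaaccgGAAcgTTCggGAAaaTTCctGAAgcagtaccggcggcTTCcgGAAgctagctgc
Hspe1: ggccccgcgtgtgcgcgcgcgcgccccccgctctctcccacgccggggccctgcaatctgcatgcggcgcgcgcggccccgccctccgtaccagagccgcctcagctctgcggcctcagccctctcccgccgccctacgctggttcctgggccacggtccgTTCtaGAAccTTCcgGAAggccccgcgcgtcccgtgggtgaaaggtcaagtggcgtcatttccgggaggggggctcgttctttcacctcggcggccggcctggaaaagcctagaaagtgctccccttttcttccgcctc
Hspb1: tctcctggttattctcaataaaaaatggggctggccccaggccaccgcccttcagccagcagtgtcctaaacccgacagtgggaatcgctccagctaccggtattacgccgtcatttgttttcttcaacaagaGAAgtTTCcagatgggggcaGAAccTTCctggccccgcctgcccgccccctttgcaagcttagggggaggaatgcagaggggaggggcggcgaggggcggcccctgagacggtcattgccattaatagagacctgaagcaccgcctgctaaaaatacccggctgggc
Dnajb6: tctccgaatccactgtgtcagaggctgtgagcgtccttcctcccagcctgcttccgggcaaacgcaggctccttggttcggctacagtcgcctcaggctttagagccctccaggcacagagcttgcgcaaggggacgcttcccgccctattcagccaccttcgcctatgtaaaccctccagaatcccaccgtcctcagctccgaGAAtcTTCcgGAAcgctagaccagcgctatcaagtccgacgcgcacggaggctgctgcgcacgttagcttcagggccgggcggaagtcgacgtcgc
Dnajb1, a gene with a large fall, had no match in either of its RefSeq windows, which says only that these letters are not in them. Hspa1a and Hspa1b each hold 1 pair, GAAGATTC, 104 bases before the start.

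In the Hsp70 and Hsp110 class, 7 of 14 genes were called lower, and the median log2 fold change was −0.55. Hsph1 (ENSMUSG00000029657, chromosome 5 from 149614287 to 149636376, minus strand), an Hsp110 that exchanges the nucleotide of Hsp70, had 216, 259 and 305 CPM in WT mice and 65.4, 64.9 and 78.9 in KO mice. Every KO mouse was below every WT mouse by a wide margin. Its mean was 3.73-fold lower in KO mice (log2 fold change −1.90 ± 0.14 SE, adjusted p = 0.00466, edgeR quasi-likelihood, n = 3 mice per group), and it was the largest fall of the family. Hspa8 (ENSMUSG00000015656, chromosome 9 from 40800984 to 40810087, plus strand), the constitutive Hsp70 of the cytosol, which also rises on heat shock, had 1462, 1490 and 1884 CPM in WT mice and 710, 724 and 744 in KO mice. The KO values lay close together, whereas WT6 stood above the other WT mice, and the mean was 2.22-fold lower (log2 fold change −1.15 ± 0.11, adjusted p = 0.00665). Hspa4l, another Hsp110, had 197.5, 217 and 248.7 CPM in WT mice and 122, 103 and 132 in KO mice (log2 fold change −0.90, adjusted p = 0.0149). Hspa4, the most abundant Hsp110 per length, differed by less, with 228, 228 and 243 CPM against 185, 185 and 182 (log2 fold change −0.34, adjusted p = 0.0189). The ratio of Hsph1 to Hspa4, both in CPM per kb of exon, was 0.847 ± 0.116 (SD, n = 3) in WT mice and 0.289 ± 0.0361 in KO mice.

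Hspa5 (BiP), the Hsp70 of the endoplasmic reticulum, had 748, 742 and 865 CPM in WT mice and 502, 481 and 573 in KO mice. The groups did not overlap, and the mean was 1.51-fold lower (log2 fold change −0.60, adjusted p = 0.0212). Hspa12b, a distant Hsp70 relative known from endothelium, fell with a small spread, from 154.5, 163 and 159 CPM to 107, 98.1 and 95.7 (log2 fold change −0.66 ± 0.06, adjusted p = 0.00665). Of 6 endothelial markers 1 was called lower (Cldn5), and their median log2 fold change was −0.10. Hspa2, an Hsp70 best known from testis, fell by 0.50 on the log2 scale (adjusted p = 0.0452). Hspa9, the mitochondrial Hsp70, was not called, with 187, 198 and 200.5 CPM against 179, 171 and 177 (log2 fold change −0.15, adjusted p = 0.116). Hspa13, Hspa12a, Hspa14 and Hspa1l were not called either, with log2 fold changes from −0.43 to 0.02.

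The stress-induced Hsp70 genes Hspa1a and Hspa1b varied too much between mice to be called. Hspa1a had 13.7, 28.6 and 68.9 CPM in WT mice and 11.1, 3.67 and 17.1 in KO mice, and Hspa1b had 23.1, 45.7 and 102 against 14.96, 4.41 and 30.4. Their means were 3.61-fold and 3.54-fold lower, but the groups overlapped and the adjusted p-values were 0.154 and 0.180. In the study's other lung experiment, with other mice at an earlier time of day, both genes were listed as higher in KO mice. The lower means are therefore described for these mice at ZT10 only, and why the directions differ was not tested. WT6, the highest mouse for both, was also the highest for 11 of the 12 immediate early genes measured, for example Fos with 162 CPM against 12.4 to 46.7 in the other 5 mice. edgeR called 0 of the 12 (3 lower at an unadjusted p under 0.05, 1 by DESeq2), and their part in the Hspa1a and Hspa1b values was not tested. Both genes lie close together on chromosome 17 (34969190 to 34972156 and 34956436 to 34959238, minus strand) and are nearly identical in sequence, so the split of reads between them is uncertain.

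Both cytosolic Hsp90 genes fell. Hsp90ab1 (ENSMUSG00000023944, chromosome 17 from 45567775 to 45573271, minus strand), the constitutive form and the most abundant member per length, had 1516, 1725 and 1974 CPM in WT mice and 958, 933 and 964 in KO mice. The highest KO mouse was far below the lowest WT mouse (1.83-fold lower mean, log2 fold change −0.87 ± 0.10, adjusted p = 0.0118). Hsp90aa1 (ENSMUSG00000021270, chromosome 12 from 110690605 to 110702728, minus strand), the inducible form, had 677, 727 and 956 CPM in WT mice and 385, 344 and 365 in KO mice. Its mean was 2.16-fold lower (log2 fold change −1.11 ± 0.13, adjusted p = 0.0120). Hsp90b1 (Grp94), the form of the endoplasmic reticulum, was not called, with 944, 939.6 and 1086 CPM against 808, 767 and 896 (log2 fold change −0.26, adjusted p = 0.118).

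The 5 Hsp90 co-chaperones among the members were all called lower. Each was entered by name with earlier results known, so this count does not describe Hsp90 co-chaperones in general. Of 22 other cofactors of Hsp70 and Hsp90, 4 were called lower, with a median log2 fold change of −0.09. Stip1 (Hop), which links Hsp70 to Hsp90, had 143, 155 and 184 CPM in WT mice and 77.7, 75.4 and 87.0 in KO mice, a 2.01-fold lower mean (log2 fold change −1.01, adjusted p = 0.00943). Fkbp4, a peptidyl-prolyl isomerase of steroid receptor complexes, had 248, 259 and 291 CPM against 146, 139 and 148.5 (log2 fold change −0.88, adjusted p = 0.00653). Chordc1, an Hsp90-binding protein, had 87.7, 102 and 105 CPM against 49.5, 57.6 and 55.8 (log2 fold change −0.85, adjusted p = 0.0093). In each of these 3 genes every WT mouse lay above every KO mouse. Ahsa1, which stimulates the ATPase of Hsp90, and Ptges3 (p23), which holds Hsp90 in its closed form, fell by 0.66 and 0.48 on the log2 scale (adjusted p = 0.0134 and 0.0309). Hsf1 was not called, with 46.7, 46.7 and 49.2 CPM in WT mice and 39.8, 45.1 and 42.9 in KO mice (log2 fold change −0.16, adjusted p = 0.165), although its groups did not overlap.

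**Figure D2:**
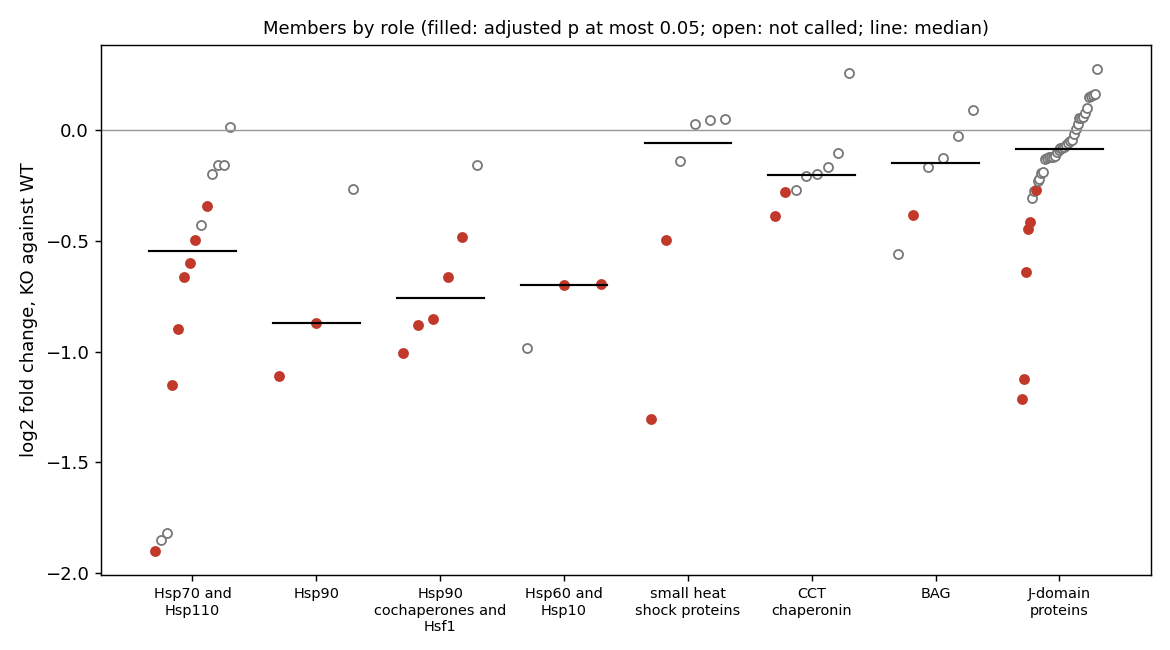
The log2 fold change of each of the 86 members (KO against WT, vertical axis) by role class, with called members filled in red, the others open and the class median as a line. The Hsp90, co-chaperone and Hsp60 classes lay lowest, with medians of −0.87, −0.76 and −0.70, and most of the 40 J-domain proteins lay near 0. The co-chaperones were entered by name, with earlier results known.

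Among the J-domain proteins 6 of 40 genes were called lower, and the median log2 fold change was −0.08. At an unadjusted p under 0.05, 12 were lower and 1 was higher, and DESeq2 called 8 lower. The log2 fold change was below 0 in 28 of the 40. Dnajb1 (ENSMUSG00000005483, chromosome 8 from 83608193 to 83612653, plus strand), the main stress-induced partner of Hsp70, had 82.7, 94.4 and 97.3 CPM in WT mice and 39.4, 43.5 and 42.8 in KO mice. Its mean was 2.18-fold lower (log2 fold change −1.12 ± 0.08, adjusted p = 0.00466), and it had the smallest p-value of the family. Dnaja1 (ENSMUSG00000028410, chromosome 4 from 40722150 to 40737149, plus strand), a partner of Hspa8, had 279.5, 334 and 361 CPM in WT mice and 132.5, 145 and 142 in KO mice. Its mean was 2.32-fold lower (log2 fold change −1.22 ± 0.10, adjusted p = 0.00653), and 7.05% of its exonic bases overlap Smu1 on the opposite strand. The related Dnaja2 had 163, 163 and 173.5 CPM against 158, 147 and 155 and was not called (log2 fold change −0.12, adjusted p = 0.215). The ratio of Dnaja1 to Dnaja2 in CPM per kb was 0.672 ± 0.0695 (SD, n = 3) in WT mice and 0.315 ± 0.0256 in KO mice.

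The other called J-domain genes were Dnaja4, Dnajb4, Dnajb2 and Dnajc3, with log2 fold changes of −0.64, −0.45, −0.41 and −0.27. Of the exonic bases of Dnaja4, 44.1% overlap Wdr61 on the opposite strand, and the strand setting of the counting is not given in the sources used here. Dnajc3 (p58IPK) works in the endoplasmic reticulum, where Dnajb9 and Dnajb11 were not called (log2 fold changes −0.27 and −0.23, adjusted p = 0.0622 and 0.123). Dnajc10, a disulfide reductase of the same compartment, had 126, 121 and 125 CPM in WT mice and 149.6, 132.5 and 134 in KO mice. All KO mice were above all WT mice, yet it was not called (log2 fold change 0.16, adjusted p = 0.159). Dnajc7 and Dnajc17 also did not overlap between groups, with log2 fold changes of 0.17 and 0.28 and adjusted p-values of 0.273 and 0.196.

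Hspb1 (ENSMUSG00000004951, chromosome 5 from 135887919 to 135889563, plus strand), known as Hsp27 in humans, had 94.6, 115 and 176 CPM in WT mice and 46.3, 47.9 and 62.0 in KO mice. The lowest WT mouse was above the highest KO mouse, and the mean was 2.47-fold lower (log2 fold change −1.31 ± 0.23, adjusted p = 0.0274). With 1 mouse left out, edgeR called Hspb1 in 2 of 6 fits. Hspb8, which works with Bag3 in the removal of misfolded proteins, had 65.3, 74.2 and 80.9 CPM against 54.1, 48.7 and 53.8 (log2 fold change −0.49, adjusted p = 0.0268). The other 4 small heat shock genes were not called, with log2 fold changes from −0.14 to 0.05. One of them, Hspb7, a protein of heart muscle, had 21.7, 33.1 and 19.2 CPM in WT mice and 13.1, 10.9 and 43.9 in KO mice. The 6 mice stood in the same order for Hspb7 as for the summed CPM of 6 cardiac muscle markers (676, 1191 and 489 in WT mice, 289, 180 and 1318 in KO mice), whose part in its values was not tested. Hspb2 shares 30.2% of its exonic bases with Cryab on the opposite strand, which had 24.4 times its counts. Cryab is itself a small heat shock protein outside the symbol rule, so the counts and sums of this class leave it out.

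The mitochondrial chaperonin genes fell together. Hspd1 (Hsp60, chromosome 1 from 55077835 to 55088243, minus strand) had 176, 185 and 215 CPM in WT mice and 114, 121 and 120.0 in KO mice (log2 fold change −0.70 ± 0.08, adjusted p = 0.0118). Hspe1 (Hsp10, chromosome 1 from 55088132 to 55091307, plus strand) had 49.96, 55.9 and 68.7 CPM against 32.9, 38.8 and 36.1 (log2 fold change −0.69 ± 0.12, adjusted p = 0.0270). The 2 genes overlap by 112 bases at their starts. Their ratio, in CPM per kb, was 1.85 ± 0.11 (SD, n = 3) in WT mice and 1.84 ± 0.10 in KO mice. The processed pseudogene Hspd1-ps3, with 1.52 to 1.97 CPM in WT mice and 0.733 to 1.23 in KO mice, can share reads with Hspd1 and is uncertain (log2 fold change −0.98, adjusted p = 0.0678).

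The CCT chaperonin, a ring that folds actin and tubulin, and the BAG proteins differed by less. Of 8 CCT genes 2 were called lower, Cct3 with 116, 119 and 133 CPM in WT mice against 94.6, 94.0 and 93.6 in KO mice (log2 fold change −0.39, adjusted p = 0.0218) and Cct7 (log2 fold change −0.28, adjusted p = 0.0436). Cct2, Cct4, Cct5, Cct6a and Cct8 were not called, with log2 fold changes from −0.27 to −0.10, and neither was Tcp1, a subunit of the same ring outside the symbol rule (log2 fold change −0.22, adjusted p = 0.0805). Bag3, a stress-induced BAG protein that directs clients to autophagy, had 80.6, 86.7 and 79.7 CPM against 61.2, 58.3 and 70.0 (log2 fold change −0.38, adjusted p = 0.0366). The other 5 BAG genes were not called, from Bag2 with a log2 fold change of −0.56 (adjusted p = 0.0555) to Bag6 with 0.09.

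**Figure D3:**
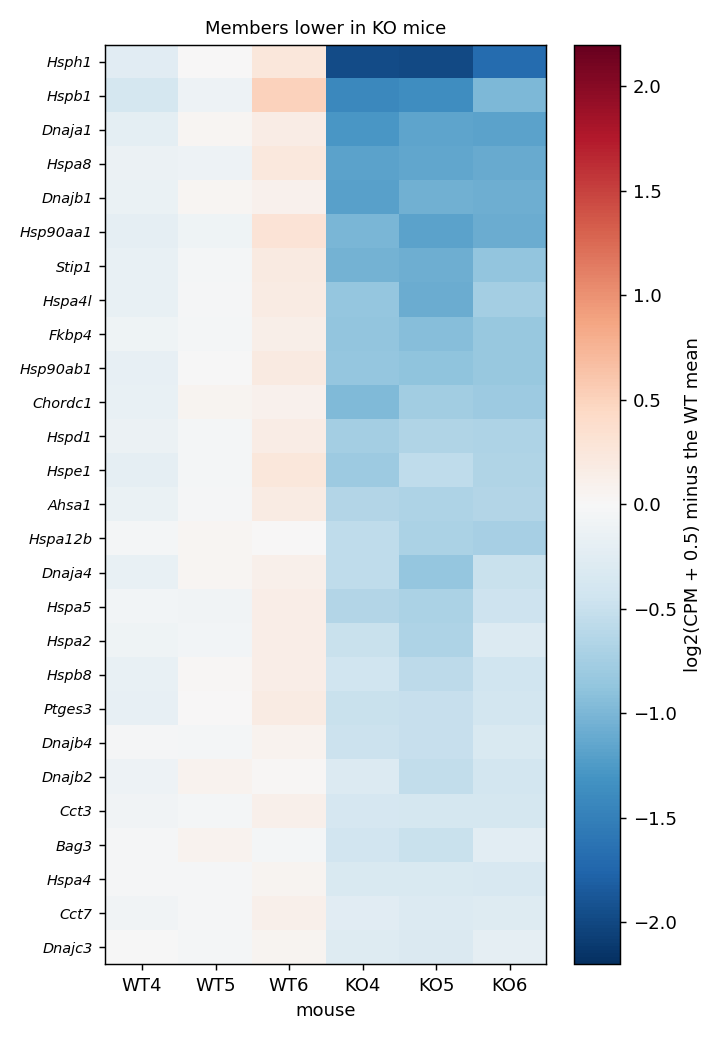
Each row is 1 of the 27 members called lower and each column 1 mouse, and the colour gives log2(CPM + 0.5) minus the mean of the 3 WT mice. All KO cells are blue, from −1.98 in Hsph1 to −0.20 in Dnajc3, and WT6 is the highest WT mouse in 24 of the 27 rows.

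The called members also tended to the same order in the WT mice. Of the 27, 24 had their highest WT value in WT6 and 23 their lowest in WT4. The share of all genes with these extremes was not counted. The list of 19 heat-inducible members had mean deviations from the WT level of −0.25, −0.03 and 0.28 on the log2 scale in WT4, WT5 and WT6. The same means were −1.004, −1.16 and −0.82 in KO4, KO5 and KO6. The highest KO mouse thus lay below the lowest WT mouse, and the gap between them was close to the range of the WT mice. Over all genes tested the means in WT4, WT5 and WT6 were −0.01, 0.006 and 0.003. WT6 was also highest over 31 proteasome subunits, of which 0 were called (−0.03, −0.04 and 0.07). It was lowest over the 6 endothelial markers (0.08, −0.007 and −0.07). The 10 members of the endoplasmic reticulum had 2 called and a median of −0.21, and the 7 of mitochondria had 2 called and a median of −0.12.

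The summed level of the family was also lower in KO mice. Levels are compared here between genes as CPM per kb of exon. Summed over the 86 members, they came to 3541 ± 365 (SD, n = 3) in WT mice and 2388 ± 76.1 in KO mice, which is 67.4% of the WT level. The sum of each class in KO mice was 54.9% of the WT sum for small heat shock proteins and 55.6% for Hsp70 and Hsp110. It was 58.8% for the Hsp90 co-chaperones with Hsf1, which were entered by name, 59.9% for Hsp90 and 61.5% for Hsp60 and Hsp10. The value for small heat shock proteins was carried by Hspb1, which went from 125 to 50.5, while 4 of the 6 genes of the class were not called and its median log2 fold change was −0.06. The sum was 87.1% for CCT, 87.2% for J-domain proteins and 91.0% for BAG. Hsp90ab1 made up 16.3% of the family sum in WT mice and 13.3% in KO mice, and Hspa8 10.6% and 7.07%. Hsp90b1, which was not called, made up 6.94% and 8.55%, so that it passed Hspa8 in rank in KO mice. Called members had a median WT level of 37.7 CPM per kb and the others of 7.72, and across the 86 genes, which are not independent, the Spearman correlation of WT level with log2 fold change was −0.48. A gene with few counts is harder to call, so the medians cannot be told apart from an effect of depth, which was not tested.

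**Figure D4:**
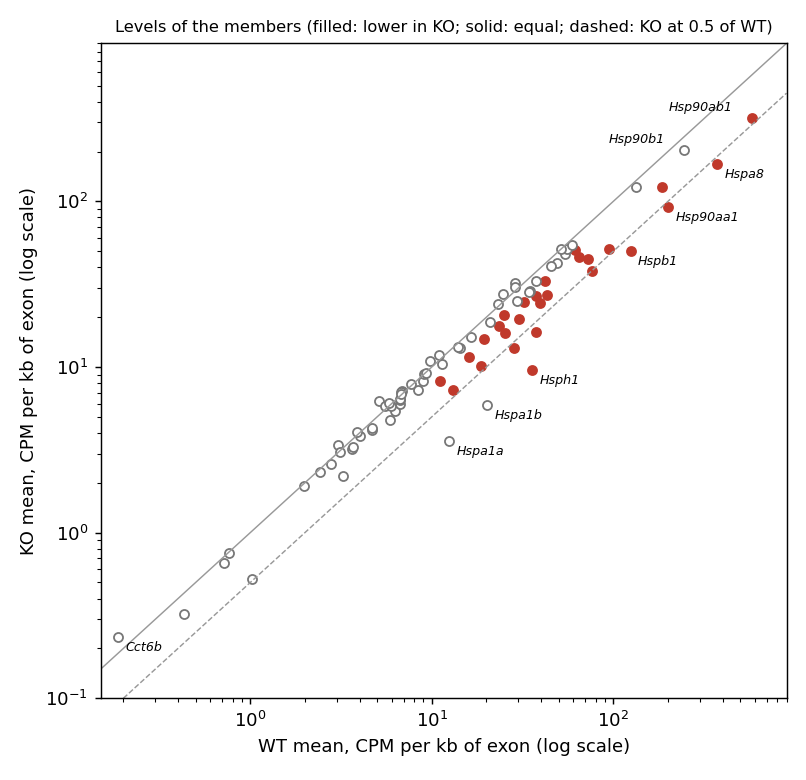
Mean level of each of the 86 members in WT (horizontal) and KO mice (vertical), in CPM per kb of exon on log scales, with called members filled. The solid line marks equal levels and the dashed line a KO level at 0.5 of the WT level, and Hsph1, Hspa1a and Hspa1b lie farthest below it.

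Genes outside the family that work with it were counted in the same fit. Of 22 other cofactors of Hsp70 and Hsp90, 4 were called lower and 0 higher, with a median log2 fold change of −0.09. They were Fkbp5, an isomerase of the Hsp90 complex that glucocorticoids induce (59.3, 87.6 and 88.2 CPM in WT mice, 27.7, 35.4 and 30.4 in KO mice, log2 fold change −1.33, adjusted p = 0.0142), St13 (Hip, −0.60), Hyou1, an Hsp110 relative of the endoplasmic reticulum (−0.42), and Nudc (−0.37). Of 13 other genes known to respond to Hsf1, 2 were called lower. Serpinh1 (Hsp47), the collagen chaperone, had 353, 375 and 430.0 CPM in WT mice and 217, 184 and 191 in KO mice (log2 fold change −0.97, adjusted p = 0.00898). Cacybp had 67.1, 70.4 and 84.4 CPM against 40.1, 42.0 and 43.9 (log2 fold change −0.82, adjusted p = 0.0118). Of 14 genes of folding and stress in the endoplasmic reticulum, 3 were called lower (Hyou1, Manf and Ddit3) and the median was −0.23. Among 6 prefoldin genes (median 0.03) edgeR called 0 in either direction, with 0 at an unadjusted p under 0.05 and 0 by DESeq2. Among 31 proteasome subunits (median −0.02) it called 0, with 4 lower at an unadjusted p under 0.05 and 0 by DESeq2.

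In bulk lung, fewer cells of a type and less RNA per cell cannot be told apart. Markers of several blood cell types moved with genotype. Of 8 monocyte markers 6 were called higher in KO mice (median log2 fold change 1.06), and of 5 neutrophil markers 3 (median 1.01). All 5 red cell markers were called lower (median −0.89), with summed levels of 2126 to 2277 CPM in WT mice and 1035 to 1411 in KO mice. Of 6 B cell markers edgeR called 0 and DESeq2 6 higher (6 at an unadjusted p under 0.05), and in all 6 every KO mouse lay above every WT mouse, with summed levels of 109 to 127 CPM in WT mice and 214 to 907 in KO mice. For T cells edgeR called 0 of 6 (5 higher at an unadjusted p under 0.05, 4 by DESeq2), and for alveolar macrophages 1 of 6 was higher (Marco). For smooth muscle it called 0 of 6 (median −0.49, 5 lower at an unadjusted p under 0.05, 4 by DESeq2), and for cardiac muscle 0 of 6 (0 and 0). For type 2 alveolar, ciliated and club cells it called 0 of 6, 6 and 4 markers, with 1 lower in each list at an unadjusted p under 0.05 and 1 by DESeq2. Of 6 type 1 alveolar markers 1 was called lower (Rtkn2). The neutrophil marker Ly6g, at 3 to 7 counts, was the only listed cell type marker not tested. The part of these cell types in the chaperone values was not tested.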

How the data were processed

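RNA was measured by stranded mRNA sequencing in 1 library per lung. Per the labels and the study's methods, the authors trimmed reads, aligned them to GRCm38 and counted them per gene, and they deposited whole-number counts without normalization. The submitters' processing notes list Trimmomatic 0.36, STAR 2.5.3a, Picard 2.9.0 and HTSeq 0.6.0. The annotation release and the strand setting of the counting are not given in the sources used here, so overlapping genes are uncertain.

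KO mice were compared with WT mice by the quasi-likelihood test of edgeR 4.0.16 (R 4.3.3) with TMM scaling and no covariates, after filterByExpr at its defaults (at least 10 counts in enough libraries, 15 in total). P-values of the 17037 genes left were adjusted by Benjamini-Hochberg. The SE of a log2 fold change is its size over the square root of the F statistic. CPM use TMM-scaled library sizes, SD are between 3 mice, and 3 counts were taken as the floor, for counting error only. Exact permutation tests of 3 against 3 cannot go below 0.1 and were not used for calls. Positions and union exon lengths came from GENCODE mouse release 21 (GRCm38), promoter windows from RefSeq (GRCm38.p6).

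The members and all lists were chosen with earlier results of these data known. Named genes were members called at an adjusted p of 0.05, fixed key chaperones, the extremes of each class, genes next to the count minimum and called genes of the other lists. Any other gene was named after its values were seen. Alternatives were DESeq2 size factors, upper-quartile factors, no filter, a filter at 10 counts in all 6 libraries, the exact test of edgeR, DESeq2 1.42.0, a block for replicate number, removal of immunoglobulin genes, and each mouse left out. The fits were also run on simulated counts drawn independently for each mouse. Such counts hold no differences that many genes share between mice, so they do not test the dependence on single mice. Tables and figures used Python 3.11.15, pandas 2.3.3, SciPy 1.17.1 and Matplotlib 3.10.9.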

Additional observations from a re-analysis of the deposited data

How the results depend on the processing

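The number of members called lower (27) stayed within 1.5 times under DESeq2 size factors (27), upper-quartile factors (24), unfiltered counts (30), a minimum of 10 counts in all 6 libraries (27), the exact test of edgeR (30), DESeq2 (33) and without immunoglobulin genes (29), and 0 members were called higher under each of these. DESeq2 called 1913 genes in all, against 1089. With each mouse left out in turn, edgeR called 0 to 22 members lower and 1 to 1278 genes in all, with the lowest of both without WT5, and the median log2 fold change of the members lay between −0.23 and −0.16. DESeq2 with each mouse left out, an alternative chosen after seeing the data, called 27 to 32 members lower, and 2233 genes in all without KO4. With the adjusted p alone in place of both thresholds, 27 members passed against 1. The replicate block left 12 members and 66 genes called. Mice with the same number did not deviate together (correlations −0.03, −0.15 and −0.02), so the numbers were not taken to pair the mice. For the single members named by rule, 355 values kept their direction and side of the threshold, 92 kept the direction but passed the threshold no more, 1 passed it newly and 0 reversed. Depth limits the members near the count minimum, such as Cct6b with 6 to 16 counts.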
